A study of Mus musculus with 58 samples.

Results

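The collapsin response mediator proteins (CRMPs) are encoded by 5 mouse genes, *Dpysl2*, *Dpysl3*, *Dpysl4*, *Dpysl5* and *Crmp1*. All 5 were found by their symbol among the 31246 genes listed for the primary visual cortex (PVC) and as many for the entorhinal cortex (EC). The family was taken up because *Dpysl2* had differed between the regions in earlier results from these data, so its values are given as a description. Which measure that difference concerned is not stated, and in the mean levels compared here *Dpysl2* was within 1.5-fold, the limit used for a regional difference. RNA-sequencing had been performed on poly(A)+ RNA from both regions of male C57Bl/6 mice with a targeted replacement of *Apoe*, aged 14 to 15 months. In each region the labels give 10 *APOE3/3* and 19 *APOE3/4* libraries, 58 in all, and the same 29 animal numbers occur in both regions. Both genotypes carry human *APOE* in place of the mouse gene, under the mouse promoter, and no group with mouse *Apoe* was included. Per the methods, the mice of the whole study, which also included animals for immunolabeling, came from separate colonies. Neither the methods nor the labels assign the sequenced animals to a colony.

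CRMPs are cytosolic phosphoproteins of neurons, named for the collapse of growth cones that semaphorin 3A, once called collapsin, brings about. They bind tubulin and help to steer the assembly of microtubules in growing axons, and phosphorylation by Cdk5 and Gsk3 loosens that binding. The family is related in sequence to dihydropyrimidinase, an enzyme of pyrimidine breakdown found mainly in liver and kidney. In brain, *Dpysl3*, *Dpysl5* and *Crmp1* are best known from developing neurons, and *Dpysl2* remains abundant in the adult.

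The values described here are the authors' mean normalized counts, 1 per gene and region, with both genotypes averaged together. A level is thus a mean over mice with no spread attached, no test between samples was possible, and effects of genotype on the family are not reported here. The regions had been normalized separately. The median EC over PVC ratio of the 15642 genes that reached 10 mean normalized counts in both regions was 1.86, and ratios between regions are therefore given relative to that median (relative ratio 1). A relative ratio above 1.5 or below its inverse was taken as a regional difference in level. In tissue, fewer cells of a type and less RNA per cell cannot be told apart.

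The genes are paralogs, so their sequences were compared to see whether a whole read could match another member exactly. No stretch of the read length, 149 bases, was shared between annotated coding transcripts of any pair. Only exact matches among these transcripts were sought, so alignment with mismatches, or to other loci, was not tested. The longest run in common was 29 bases, found between *Dpysl2* and *Dpysl4* and again between *Dpysl4* and *Crmp1*. Over the aligned coding sequence *Dpysl2* was 73.2% identical to *Crmp1*, 72.9% to *Dpysl3*, 72.6% to *Dpysl4* and 58.5% to *Dpysl5*, the most distant member. A coding window of 75 bases is shown for 4 members to display how closely the genes resemble each other. Among windows without gaps inside a single exon of each gene, it is the one with the most bases equal to *Dpysl2* over the other 3 genes shown, and it need not hold the longest shared runs. *Dpysl3* did not enter this choice and is not shown. Sequences run 5′ to 3′ on the coding strand, and capitals mark bases that differ from *Dpysl2*.
Dpysl2: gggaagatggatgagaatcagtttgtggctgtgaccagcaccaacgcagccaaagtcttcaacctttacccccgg
Crmp1: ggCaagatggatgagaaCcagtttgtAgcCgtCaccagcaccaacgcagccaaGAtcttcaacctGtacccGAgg
Dpysl4: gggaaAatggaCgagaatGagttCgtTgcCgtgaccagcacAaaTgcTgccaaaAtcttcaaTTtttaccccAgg
Dpysl5: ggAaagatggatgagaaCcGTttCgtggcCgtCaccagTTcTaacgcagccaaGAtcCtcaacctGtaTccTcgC
In this window *Crmp1* differed from *Dpysl2* at 10 of the 75 bases, *Dpysl4* at 13 and *Dpysl5* at 17. On NCBIM37 the windows are chr14:67432053-67432127 on the minus strand in exon 11 of *Dpysl2*, and, on the plus strand, chr5:37675273-37675347 in exon 11 of *Crmp1*, chr7:146283727-146283801 in exon 10 of *Dpysl4* and chr5:31093871-31093945 in exon 10 of *Dpysl5*.

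The genes are dispersed over the genome. *Dpysl2* (ENSMUSG00000022048.8) occupies chr14:67421701-67487525 on the minus strand and has 1 annotated transcript with 14 exons. *Crmp1* (ENSMUSG00000029121.8) lies at chr5:37633319-37683371 on the plus strand, with 3 transcripts. *Dpysl5* (ENSMUSG00000029168.8) is on the same chromosome and strand at chr5:31013937-31101748, *Dpysl4* (ENSMUSG00000025478.9) is at chr7:146271900-146288603 on the plus strand, and *Dpysl3* (ENSMUSG00000024501.13) is on the minus strand of chromosome 18. The last 3 have 6 transcripts each. In the GENCODE annotation of NCBIM37 no exon of another gene overlapped an exon of any member (0 overlapping genes for each).

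*Crmp1* and *Dpysl2* were by far the most abundant members in both regions. *Crmp1*, which encodes a mediator of semaphorin 3A signaling, had 12709 mean normalized counts in the EC against 5097 in the PVC. *Dpysl2*, which encodes the tubulin-binding member best known from axon formation, had 12227 in the EC against 5720 in the PVC. Levels of different genes can be compared only per length, and per kilobase of merged exons *Crmp1* reached 3788 in the EC against 1519 in the PVC. *Dpysl2* reached 2705 per kilobase in the EC against 1265 in the PVC. Both stood high among the 14959 genes compared that have a length, at percentile 96.5 of per-kilobase levels in the EC for *Crmp1* and 94.1 for *Dpysl2*, and at 94.3 and 92.7 in the PVC.

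The other 3 members were lower. *Dpysl4*, whose product also acts on neurite growth, had a mean normalized count of 4032 in the EC against 1885 in the PVC, or 674 and 315 per kilobase. *Dpysl3*, whose product binds actin as well as microtubules, had 3495 in the EC against 1087 in the PVC, or 558 and 173 per kilobase. *Dpysl5*, the most divergent member, had 2899 in the EC against 868 in the PVC, or 422 and 126 per kilobase. *Dpysl5* was thus near the middle of the genes compared, at percentile 58.7 of per-kilobase levels in the EC and 42.9 in the PVC.

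**Figure D1:**
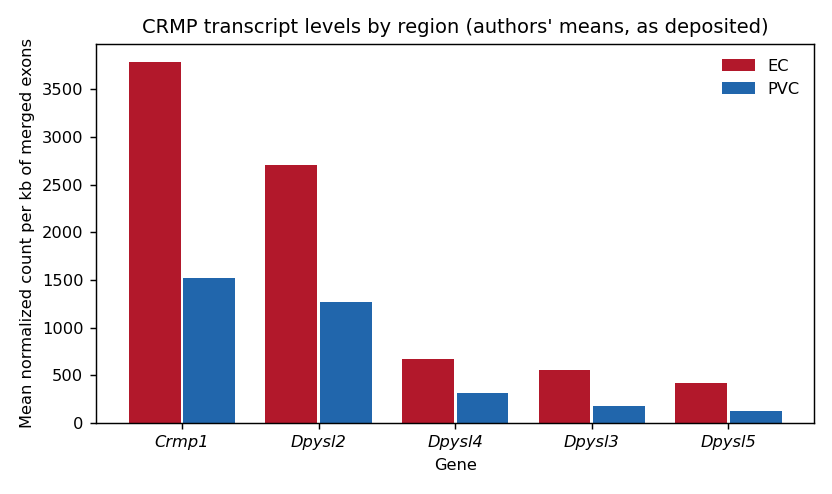
Mean normalized count per kilobase of merged exons (vertical axis, linear from 0) of the 5 CRMP genes (horizontal axis) in the EC (red) and PVC (blue). Bars are the authors' means over the libraries of a region as deposited, with no error bars because no values of single libraries were used. The order runs from *Crmp1* at 3788 in the EC down to *Dpysl5* at 422, and is the same in the PVC. The regions had been normalized separately and the median gene was 1.86-fold higher in the EC, so red and blue heights are not directly comparable.

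The order of the per-kilobase levels was *Crmp1*, *Dpysl2*, *Dpysl4*, *Dpysl3*, *Dpysl5* in both regions. The widest step was that between *Dpysl2* and *Dpysl4*, 4.01-fold in the EC against 4.02-fold in the PVC. Its size depends on the length used, as per kilobase of the longest transcript it was 2.81-fold and 2.82-fold. *Crmp1* exceeded *Dpysl2* by 1.40-fold in the EC against 1.20-fold in the PVC. This top step also depends on length, since with no division by length *Dpysl2* was the higher of the pair in the PVC, by 1.12-fold. *Dpysl4* and *Dpysl3* were 1.21-fold apart in the EC against 1.82-fold apart in the PVC. From the highest to the lowest member the levels spanned 8.97-fold in the EC against 12.01-fold in the PVC. Whether neighbours in this order differ beyond the spread between mice was not tested. The counting error alone was small, at most 0.37% of the mean for any member in the EC against 0.70% in the PVC.

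All 5 members had a relative EC over PVC ratio above 1, that is, above that of the median gene. The ratios ran from 1.15 for *Dpysl2* to 1.797 for *Dpysl5*, with a median of 1.34 against 1 for all genes compared by construction. The members past 1.5-fold were *Dpysl3* and *Dpysl5*, 2 of 5, both higher in the EC. Of all genes compared 12.2% were past that limit in either direction and 6.78% were higher in the EC. With 5 members chosen from these data, the count is a description of the family.

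*Dpysl5* had the largest relative ratio of the family, 1.797 (log2 0.85), and 567 of the 15642 genes had a larger one. *Dpysl3* followed closely at 1.73 (log2 0.79), with 636 genes above it. These are the members with the lowest per-kilobase levels. *Crmp1* was intermediate at 1.34 (log2 0.43), percentile 89.6 of the genes compared. *Dpysl4* and *Dpysl2* were lowest and nearly equal, at 1.152 and 1.151, percentiles 78.4 and 78.2. The middle 95% of all genes compared ran from 0.527 to 2.05, and all 5 members were inside it. As deposited, before division by the median ratio, the EC over PVC ratios were 3.34 for *Dpysl5*, 3.22 for *Dpysl3*, 2.49 for *Crmp1* and 2.14 for each of *Dpysl4* and *Dpysl2*. The ratio of *Dpysl5* was 1.56 times that of *Dpysl2*, a contrast that no choice of scale between the regions can alter.

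**Figure D2:**
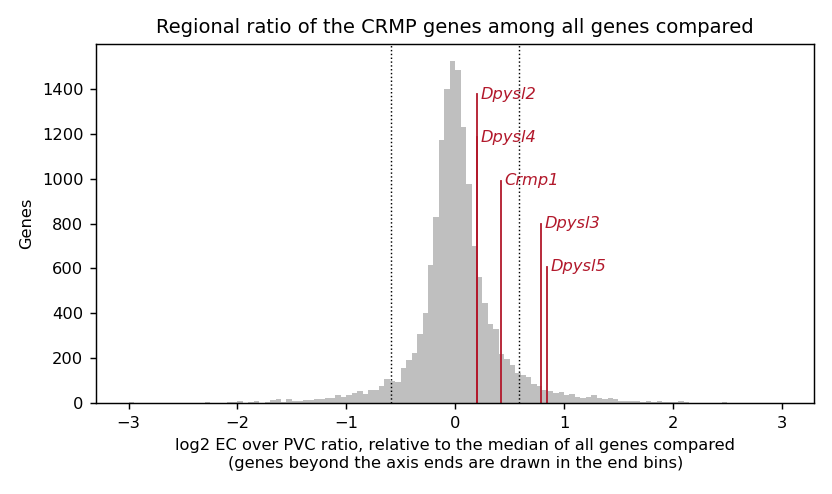
Number of genes (vertical axis) by log2 EC over PVC ratio relative to the median (horizontal axis) for the 15642 genes compared, with the 5 CRMP genes as red lines, whose heights carry no meaning, and the 1.5-fold limit as dotted lines. All members lie to the right of 0, and *Dpysl3* (0.79) and *Dpysl5* (0.85) lie outside the upper limit; genes beyond the ends of the axis are counted in the end bins.

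The make-up of the family's transcript pool differed between the regions accordingly. Of the summed per-kilobase level of the 5 genes, *Crmp1* made up 46.5% in the EC against 44.7% in the PVC. *Dpysl2* made up 33.2% in the EC against 37.2% in the PVC, which left it 4.02 percentage points lower in the EC. *Dpysl4* had 8.27% in the EC against 9.27% in the PVC. *Dpysl3* had 6.85% in the EC against 5.10% in the PVC, and *Dpysl5* 5.18% against 3.72%. A share within a region does not depend on the scale between the regions. The summed mean normalized count of the family was 35363 in the EC against 14657 in the PVC, a relative ratio of 1.30.

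**Figure D3:**
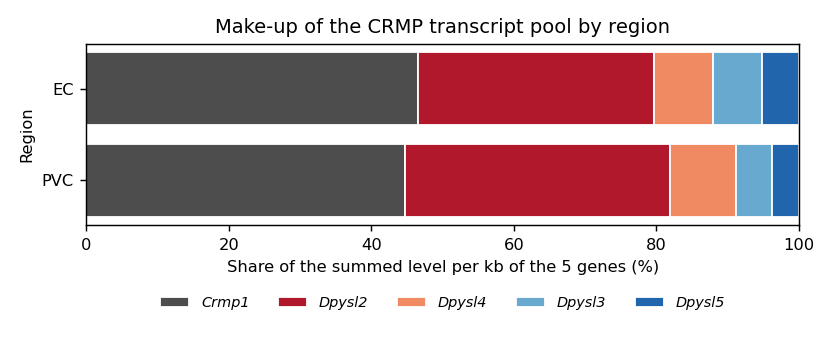
Share (%, horizontal axis) of each CRMP gene in the summed level per kilobase of the 5 genes, for the EC and PVC (vertical axis); segments are shares from the authors' means. *Crmp1* and *Dpysl2* form most of the bar in both regions, and the segment of *Dpysl2* is 33.2% in the EC against 37.2% in the PVC.

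The relative of the family, *Dpys*, which encodes dihydropyrimidinase itself, was close to the lowest levels compared. Its mean normalized count was 11.8 in the EC against 10.5 in the PVC, or 3.87 and 3.44 per kilobase, and its relative ratio was 0.605, past the limit toward the PVC. The 95% counting interval of that ratio, from 0.511 to 0.716, reaches inside the limit. It was therefore on the other side of the median from all 5 CRMP genes.

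Genes that act with the CRMPs had relative ratios closer to 1 on the median. Of 30 genes in the lists of semaphorin 3A signaling, CRMP kinases and phosphatase subunits, and CRMP binding partners, 1 was higher in the EC and 1 higher in the PVC by more than 1.5-fold, and their median relative ratio was 1.05. Of all genes compared 12.2% were past that limit in either direction, so such small counts in short lists do not set them apart. Among the 8 semaphorin 3A genes none (0) was past it. Their relative ratios ran from 0.812 for *Plxna1*, a plexin that transmits the semaphorin signal, to 1.43 for *L1cam*, an adhesion molecule of the receptor complex. The ligand gene *Sema3a* had 1585 mean normalized counts in the EC against 985 in the PVC, a relative ratio of 0.867. The gene of its binding receptor, *Nrp1*, had 2086 and 888, a relative ratio of 1.27. *L1cam* had the highest per-kilobase level of this list in both regions, 2109 in the EC against 792 in the PVC, and *Fes*, a tyrosine kinase, the lowest, 72.6 and 33.1.

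None (0) of the 11 kinase and phosphatase genes was past 1.5-fold either, with a median relative ratio of 0.983. *Cdk5r2*, which encodes an activator of Cdk5, had the lowest relative ratio at 0.849 and the highest per-kilobase levels, 4451 in the EC against 2825 in the PVC. *Dyrk2*, a kinase that primes CRMPs for Gsk3, had the highest relative ratio at 1.46. *Rock1* had the lowest per-kilobase level in both regions, 340 in the EC against 174 in the PVC. *Cdk5*, *Gsk3a* and *Gsk3b* had relative ratios of 0.912, 0.900 and 1.05, all below those of the 5 CRMP genes. *Dyrk2*, however, was above *Crmp1*, *Dpysl4* and *Dpysl2*, and *Fyn* (1.18) and *Ppp2r2b* (1.156) were above *Dpysl4* and *Dpysl2*.

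Of the 11 binding partners 1 was higher in the EC, *Tubb2a*, a β-tubulin gene with a relative ratio of 1.56 (28378 mean normalized counts in the EC against 9786 in the PVC). *Numb*, an endocytic adaptor bound by CRMPs, was higher in the PVC with a relative ratio of 0.642 (1926 and 1615). The median of the list was 1.0997. *Tuba1a*, an α-tubulin gene, had the highest per-kilobase level, 25720 in the EC against 11360 in the PVC, with a relative ratio of 1.22. *Mical1*, an enzyme that acts on actin, had the lowest, 88.7 and 49.0.

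**Figure D4:**
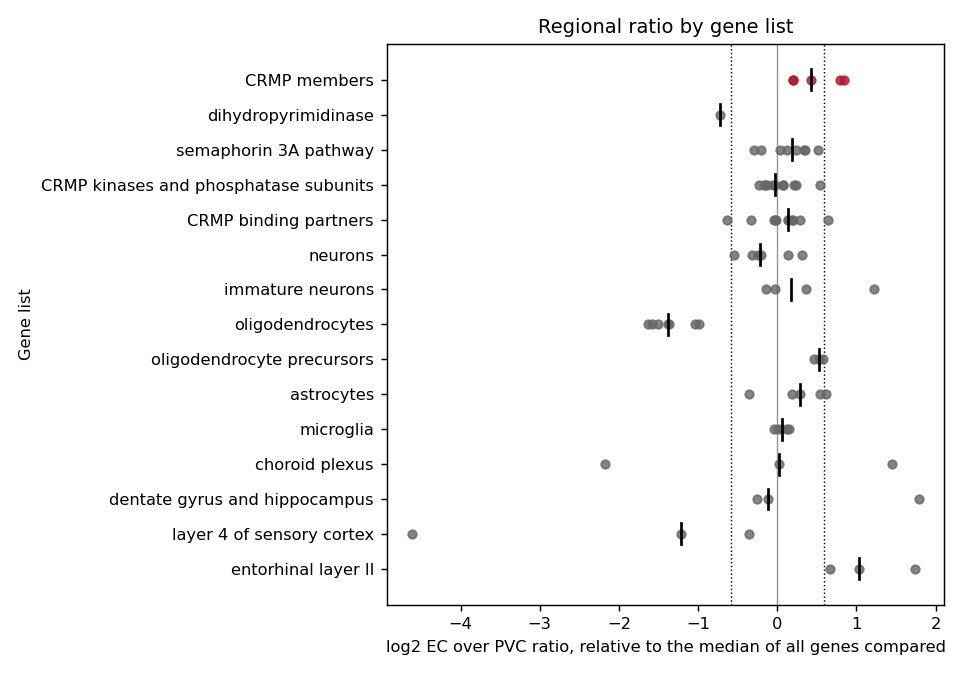
log2 EC over PVC ratio relative to the median of all genes compared (horizontal axis) for the CRMP genes (red) and for each other gene list (grey), by list (vertical axis). Points are genes, black bars are list medians and dotted lines the 1.5-fold limit; the CRMP genes lie between 0.20 and 0.85, while all 7 oligodendrocyte markers lie left of the lower limit.

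Markers of the regions and of cell types were looked up in the same way. All 3 genes used for layer II of the EC were higher in the EC, with relative ratios from 1.59 for *Calb1* to 3.34 for *Reln*. Of the 3 genes for layer 4 of sensory cortex, 2 were higher in the PVC by more than 1.5-fold, with *Rspo1* at a relative ratio of 0.0408 and *Scnn1a*, the remaining gene, at 0.781. All 7 of 7 oligodendrocyte markers were lower in the EC, with relative ratios from 0.324 to 0.503 and a summed mean normalized count of 46525 in the EC against 64376 in the PVC. The 3 precursor markers of that lineage had relative ratios from 1.38 to 1.49. The 6 neuronal markers found had relative ratios from 0.684 for *Snap25* to 1.24 for *Map2*, listed as *Mtap2*. Their median was 0.858, below the ratios of all 5 CRMP genes, but *Map2* itself was above *Dpysl4* and *Dpysl2*. The 5 astrocyte markers had relative ratios from 0.784 for *Aldh1l1* to 1.53 for *Gfap*, the 1 marker past the limit, and the 5 microglia markers lay between 0.974 and 1.11.

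Markers of immature neurons and of adjoining tissue were also looked up, as *Dpysl3*, *Dpysl5* and *Crmp1* are best known from developing neurons. Of the 4 immature neuron markers compared, *Sox11* had a relative ratio of 2.32 (297 mean normalized counts in the EC against 68.9 in the PVC). *Neurod1* had 1.29, *Tubb3* 0.984 and *Dcx* 0.910, and *Igfbpl1*, with 1.61 counts in the EC against 0.801 in the PVC, was too low to be compared. Of the genes listed for dentate gyrus and hippocampus *C1ql2* had a relative ratio of 3.46 (325 and 50.5). *Dsp*, at 35.7 in the EC against 9.69 in the PVC, was below the minimum in the PVC. Its ratio as deposited was 3.69, against a median of 1.86 for the genes compared. *Prox1* had a relative ratio of 0.841 (410 and 262) and *Neurod6* 0.924 (2604 and 1517). Whether the counts of these genes come from hippocampal cells was not tested. The choroid plexus markers were split, with *Ttr* at a relative ratio of 0.221, *Kl* at 1.01 and *Kcnj13* at 2.74, and *Folr1* too low to be compared at 9.89 and 5.00. The part of these cell types in the ratios of the CRMP genes was not tested.

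The genes most like *Dpysl2* over the 2 regional means were sought among 1021 genes of similar level, within 1.5-fold of its geometric mean. *Larp1*, *Vps35*, *Oxct1*, *Cbx5* and *Cacna1b* were nearest, with relative ratios from 1.149 to 1.153 and log2 distances of at most 0.0030. *Cacna1b*, a calcium channel gene, is also on the list of CRMP binding partners. With 2 values per gene, such a likeness is shared by many genes.

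Values of the tables bear on depth. Genes with 1 read in 1 library share the same low mean, and such values, where at least 3 genes had to share one, recurred at 30 levels in each region against 29 libraries labelled. With at least 10 genes per value there were still 30 levels in the EC but 28 in the PVC, so only the number in the PVC depended on that minimum. Whether the means include a library that the labels lack was not tested. With 3 genes per value and 1 library per level, the size factors ran from 0.228 to 2.04 in the EC against from 0.268 to 2.61 in the PVC, an 8.94-fold and a 9.75-fold range. Over all genes listed, the sum of the means was 49385500 for the EC, against 27058400 for the PVC.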

How the data were processed

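Per the methods and the submitters' processing notes, the authors aligned single-end reads to mm9 (NCBIM37) with TopHat2 2.0.6 and Bowtie2 2.0.2.0, counted them per gene with HTSeq, and fitted DESeq2 1.10.1 in each region. The signal used here is the mean normalized count that the authors deposited, the mean over a region's libraries of counts divided by size factors. The 5 other numeric columns of each table hold the authors' own genotype comparison (fold changes, their errors and p-values) and were not used, so no test was run.

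Ratios were computed with Python 3.11.15, numpy 2.4.6 and pandas 2.3.3 over genes with at least 10 in both regions and divided by their median. The scaling and the calls past 1.5-fold were tested on simulated data, with fewer changed genes than were past the limit here. Merged exon lengths came from GENCODE's NCBIM37 annotation, a later release than the authors', and were found for 95.6% of the genes compared. Coding sequences were aligned with mafft 7.526. Of 81 listed genes 80 were found, 1 by an older symbol; *Rbfox3* was not matched. Named genes were the members, for each pathway list the extremes of level and ratio, and the 5 nearest to *Dpysl2*. Further pathway genes (*Sema3a*, *Nrp1*, *Cdk5*, *Gsk3a*, *Gsk3b*, *Fyn*, *Ppp2r2b*) and the single marker genes named were picked after values were seen. The members and lists were chosen with earlier results of these data known. Counting errors were derived from the recovered size factors and cover counting only. Alternatives were other scales between the regions, other minimum counts, other limits and other lengths.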

Additional observations from a re-analysis of the deposited data

How the results depend on the processing

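The count of 2 members past 1.5-fold remained 2 with the regions scaled by their summed counts or upper quartile, with any gene above 0, and with a minimum of 100 or of 1000 in both regions, and in each of these settings the members were *Dpysl3* and *Dpysl5*. It was 3, with *Crmp1* added, at the lower of the other limits tried and with the neuron markers as the scale. It was 0 at a limit of 2-fold, which no member reached, and 5 with no rescaling, where the overall EC over PVC ratio of 1.86 enters every gene. The relative ratio of *Dpysl2* (1.151) was 1.171 with summed counts and 1.168 with the upper quartile as the scale, 1.129 with any gene above 0, 1.165 with a minimum of 100 and 1.177 with a minimum of 1000. It was 1.341 with neuron markers as the scale and 2.138 with no rescaling. The minimum of 1000 and the neuron scale were chosen after seeing the data. The share of all genes compared that were past the limit was computed in the main setting only. The counts of members at other limits and scales therefore have no such share beside them. Whether 3 of 5 members is more than for genes in general in those settings was not tested. Per kilobase of the longest transcript, *Dpysl2* had a share of 29.96% (EC) and 33.7% (PVC), and 34.6% and 39.03% with no division by length. All 5 members had a ratio above 1 in every setting run. Each scale moves all genes by the same factor, so these settings are not separate checks. In the main setting 7821 of the 15642 genes compared were above 1 by construction, and with no rescaling the median gene itself was at 1.86.

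No paired analysis was possible because the columns used hold 1 mean per region and none for single libraries, although animal numbers are shared. For the same reason no setting without a single library was run and the spread between mice does not enter. Counting error is small for the members, and for *Dpys* it spans the limit.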
